A study of Mus musculus with 6 samples.

Results

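The cytochrome P450 genes of mouse glomeruli are described here, taken as every gene whose mouse symbol is Cyp followed by a family number, a subfamily letter and a gene number, without Cyp24a1 and Cyp27b1. Of 18822 genes with a value, 77 were such members, and 33 of them had a mean of at least 1 FPKM and were compared between genotypes. FPKM is a level per length: fragments per kilobase of transcript, relative to all mapped fragments of the library. All animals were C57BL/6J mice, all had diabetic kidney disease, and RNA was taken from renal glomeruli, the filtering tufts of vessels and podocytes. Of the libraries 3 were from knockouts of proteinase 3 (PR3_KO), a neutrophil protease, and 3 from wild-type mice (WT). The labels state no age, sex, way of inducing diabetes or pooling of animals, nor whether each library is a separate animal. P-values therefore cover only the spread between these libraries, part of which may be technical. Where 3 values are given for a genotype, they follow the order of its libraries, 1, 2 and 3.

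P450 enzymes bind a haem group and use oxygen to oxidise fatty acids, sterols, retinoids, hormones and foreign compounds. Microsomal members take their electrons from the reductase encoded by Por, and mitochondrial members from ferredoxin. In the kidney most P450 messenger RNA is known from the proximal tubule, where Cyp2 and Cyp4 enzymes turn arachidonic acid into epoxides and hydroxylated products that act on vessels and salt transport. Several mouse P450 genes lie in tandem clusters of close copies, so that a short read may belong to more than one gene.

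The targeted gene Prtn3 was listed at 0.14, 0 and 0.07 FPKM in PR3_KO versus 0.46, 0.21 and 0.22 FPKM in WT (p = 0.1 by exact permutation, two-sided, the least that 3 against 3 allows), a weak check at such levels. Summed FPKM of 33 proximal tubule markers, a list that holds no P450 gene, was 19645 to 22360.5 in PR3_KO and 8252 to 15087 in WT, and 26 of the 33 rose while 0 fell. The summed level of 14 podocyte markers was 409 to 646 FPKM in PR3_KO and 718 to 1168 FPKM in WT, with 7 lower and 0 higher (4 and 1 with median-of-ratios scaling, which divides each library by its median ratio to a reference), so the defining glomerular cell was detected in every library beside abundant proximal tubule RNA. All 12 markers of glomerular endothelium fell (971 to 1390.5 FPKM summed against 2829 to 3447), as did all 12 macrophage markers (96.2 to 151 against 664 to 1406). Of 10 markers of the loop, distal tubule and collecting duct 0 rose and 4 fell (0 fell with median-of-ratios scaling), with a median of -0.45. Over all genes tested 11.7% rose and 41.1% fell (25.6% and 22.2% with that scaling). The counts of the distal and podocyte lists that fell are near the 41.1% of all genes. None of the markers in these 5 lists was at 0 in every library. WT 2 had the lowest proximal tubule score (6.70, as mean log2 of FPKM + 1, against 7.33 and 7.01 in the other WT libraries and 7.94 to 8.06 in PR3_KO) and the highest podocyte, endothelial and macrophage scores.

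More tested P450 genes rose than fell in PR3_KO. Of the 33 tested members, 15 rose, 7 fell and 11 did not pass the threshold (limma on log2 of FPKM + 1, Benjamini-Hochberg adjusted p under 0.05 over all 12388 genes tested). Over all genes tested 52.8% passed, 11.7% as higher and 41.1% as lower. The median log2 fold change, PR3_KO minus WT, was 0.48 for the members and -0.26 for all genes tested. Median-of-ratios scaling moved the median of all genes to 0.033 and gave 19 members higher and 6 lower, against 25.6% and 22.2% of all genes. Equal library sums moved it to -0.40 and gave 12 higher and 10 lower, against 7.20% and 51.1% of all genes. The 2 genotypes did not overlap in 17 members that were higher and 10 that were lower, where 16.0% and 49.1% of all genes (65.1% in either direction) did so. Cyp7b1 and Cyp4x1 passed the filter through WT alone, with PR3_KO means under 1 FPKM, so a lower value in PR3_KO was built into their choice, and without Cyp7b1 6 members fell. Among the 20 members with a mean of 10 FPKM or more 11 rose and 2 fell, and among the 13 below that level 4 rose and 5 fell. The 5 of 13 that fell are near the 41.1% of all genes tested. Shares of all genes at each level were not computed, so nothing is concluded from the split by level.

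**Figure D1:**
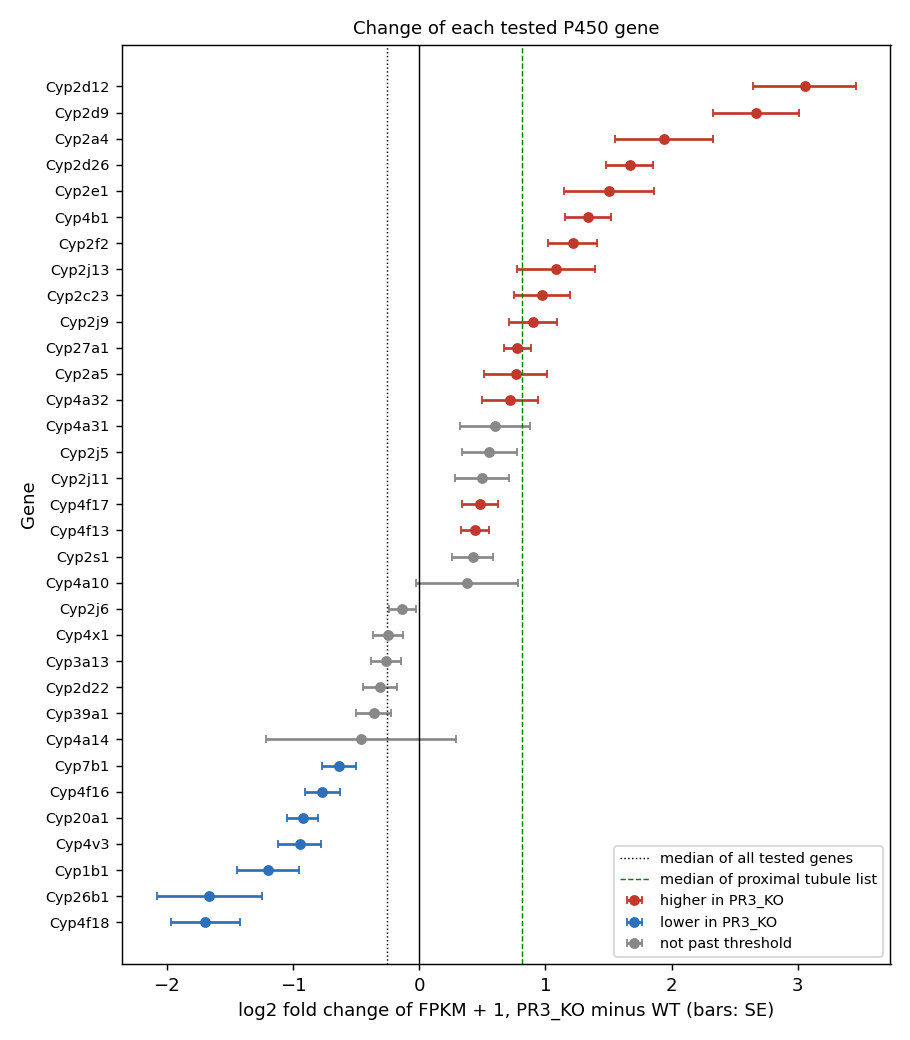
Log2 fold change of FPKM + 1 (PR3_KO minus WT, x axis) of the 33 tested P450 genes, with limma's SE as bars and colours for the 15 that were higher, the 7 that were lower and the 11 that did not pass the threshold. The dotted line is the median of all genes tested (-0.26) and the dashed line the median of the proximal tubule list (0.82). The median of the 33 tested P450 genes (0.48) lies between these lines.

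These differences ran beside those of the proximal tubule list, whose median was 0.82. The median of all 33 tested members was lower, at 0.48. Of the 15 members that rose, 10 had a larger log2 fold change than the list's median. That count was favoured, because the 15 were picked by their rise and the list was taken whole. Cyp2d12 and Cyp2d9 exceeded every gene of the tubule list (highest 2.38). WT 2 was the lowest of all libraries in 10 of the 15, and it was the highest of all libraries in all 7 members that fell. In bulk RNA fewer cells of a type and less RNA per cell cannot be told apart. The tubule score did not overlap between genotypes. With it as a covariate 0 members and 0.0% of all genes passed in limma, 4 members and 873 of the 12388 genes having an unadjusted p under 0.05, and the median SE of the members was 2.43 times as large, so that genotype and the amount of proximal tubule RNA cannot be told apart in these libraries.

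The members' FPKM summed to 5820, 4226 and 5156 in PR3_KO and to 3127, 1737 and 2652 in WT. All 3 PR3_KO sums lay above the WT sums, and WT 2 was the lowest. A pair of genes, Cyp4b1 and Cyp2e1, supplied 55.7% to 58.1% of the members' sum in PR3_KO and 41.3% to 46.1% in WT. Mean levels covered a wide range, with 9 members at 100 FPKM or more, 11 between 10 and 100, 13 between 1 and 10, and 44 under 1.

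**Figure D2:**
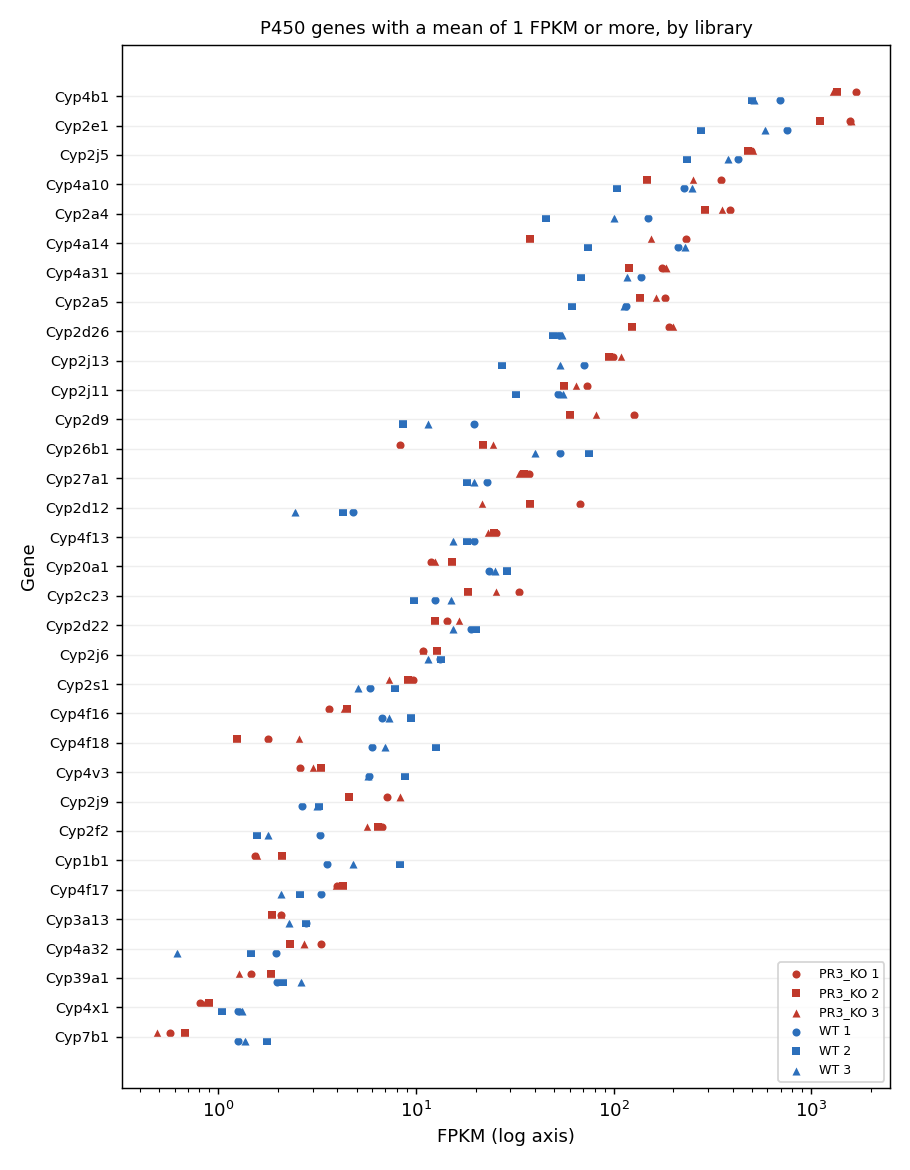
FPKM (log axis) of each tested P450 gene in each of the 6 libraries, ordered by mean level, with red for PR3_KO and blue for WT and a marker shape for the replicate number. The genotypes separate in Cyp4b1 and Cyp2e1 at the top, while in Cyp4a14 PR3_KO 2 (37.8 FPKM) is the lowest library.

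Cyp4b1, which oxidises fatty acids and some foreign compounds, was the most abundant member. It stood at 1675, 1344 and 1290.0 FPKM in PR3_KO versus 693, 499 and 515 FPKM in WT. Every PR3_KO library was above every WT library, and the gene rose by 1.34 on the log2 scale (SE 0.18, limma adjusted p = 0.00123). In its transcript 10.3% of 50-base stretches also occurred in other genes, chiefly in annotated Cyp4b1 pseudogenes. Cyp2e1, the ethanol- and acetone-oxidising enzyme, stood at 1573, 1111 and 1579.6 FPKM in PR3_KO versus 749.7, 276 and 581 FPKM in WT. The groups did not overlap, with WT 2 far below the other libraries, and the change was 1.50 (SE 0.35, limma adjusted p = 0.0098), or 1.001 without WT 2 and PR3_KO 3 together (limma adjusted p = 0.00461).

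The Cyp2a genes of chromosome 7 encode a testosterone hydroxylase (Cyp2a4) and a coumarin hydroxylase (Cyp2a5) that differ at few positions. Their coding sequences, taken from GENCODE transcripts (release M21, GRCm38), were 98.45% identical, with 23 differences in 1482 bases. The stretch of 60 coding bases with the most differences is shown because these are the positions by which reads of the pair are told apart. It covers coding bases 596 to 655, counted from the start codon, with the 4 differing bases in capitals.
Cyp2a4: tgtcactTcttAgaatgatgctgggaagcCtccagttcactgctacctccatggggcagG
Cyp2a5: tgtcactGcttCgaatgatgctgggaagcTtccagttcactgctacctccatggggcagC
In the Cyp2a4 transcript 38.0% of 50-base and 11.2% of 100-base stretches also occurred in another gene, chiefly Cyp2a5, and the shares for Cyp2a5 were 40.8% and 14.4%. The values of the pair are therefore uncertain, as the authors' way of placing shared reads is not given in the sources used here.

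Cyp2a4, at chr7:26307192-26315088, stood at 388, 290.2 and 352 FPKM in PR3_KO versus 149, 45.5 and 101 FPKM in WT. All PR3_KO libraries lay above all WT libraries, and the log2 fold change was 1.94 (SE 0.39, limma adjusted p = 0.00555). Cyp2a5, at chr7:26835339-26843264, stood at 181, 135 and 163 FPKM in PR3_KO versus 116, 61.5 and 113 FPKM in WT. It did not overlap either, and rose by 0.76 (SE 0.25, limma adjusted p = 0.0333). The call of Cyp2a5 was lost without PR3_KO 1 (0.67, limma adjusted p = 0.109), without PR3_KO 3 (0.74, limma adjusted p = 0.0876) and with no filter (limma adjusted p = 0.0536), and without WT 2 its value was 0.47 (limma adjusted p = 0.0182). Cyp2a4 exceeded Cyp2a5 by a ratio of 2.14, 2.14 and 2.16 in PR3_KO, and in WT the ratio was 1.28, 0.738 and 0.892. Thus the ratio was nearly constant over the PR3_KO libraries and spread more widely in WT. Cyp2a12 of the same subfamily was at 0 in every library.

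The 250 bases before the start site of both genes are shown because the pair rose together with unequal fold changes. They come from RefSeq on GRCm38.p6, plus strand, chr7:26306942-26307191 for Cyp2a4 and chr7:26835089-26835338 for Cyp2a5. Capitals mark 2 motifs in the order printed: first the half-site CAAAGT of HNF4 factors, and then the box TATAAA near the start.
Cyp2a4: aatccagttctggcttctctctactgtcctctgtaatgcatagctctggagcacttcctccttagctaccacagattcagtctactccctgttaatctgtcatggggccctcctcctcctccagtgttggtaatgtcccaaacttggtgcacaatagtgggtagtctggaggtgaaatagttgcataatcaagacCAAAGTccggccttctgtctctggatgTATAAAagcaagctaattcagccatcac
Cyp2a5: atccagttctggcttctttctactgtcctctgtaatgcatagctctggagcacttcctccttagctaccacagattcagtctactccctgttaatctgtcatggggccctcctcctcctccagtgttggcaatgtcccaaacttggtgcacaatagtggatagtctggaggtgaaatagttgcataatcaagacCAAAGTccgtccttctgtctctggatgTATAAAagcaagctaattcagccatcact
Over 249 aligned bases the windows were 98.39% identical, and both motifs stood in each, at -55 and -28 from the start site in Cyp2a4 and at -56 and -29 in Cyp2a5. Searched on both strands, CAAAGT was in 12.55% of 32851 RefSeq promoter windows of this length and TATAAA in 12.37%. RefSeq gave a window for 23 of the 33 tested members, of which 6 held the first motif and 8 the second. A match is a description of the letters and not a binding site.

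The Cyp2d cluster of chromosome 15, from 82370527 to 82794452, held the largest rises. Cyp2d enzymes of the mouse hydroxylate steroids and drugs, and Cyp2d9 is known as a testosterone 16-alpha hydroxylase of males. Of the 4 tested members 3 rose, and Cyp2d22 did not pass. Cyp2d9 and Cyp2d12 were 92.13% identical in coding sequence, and their most divergent 60 bases (coding bases 328 to 387) are shown with the 13 differing bases in capitals, since they tell the genes with the largest fold changes apart.
Cyp2d9: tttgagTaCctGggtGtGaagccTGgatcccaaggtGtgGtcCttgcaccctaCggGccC
Cyp2d12: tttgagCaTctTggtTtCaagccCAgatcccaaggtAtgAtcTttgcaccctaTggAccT
Of the 50-base stretches, 29.0% in Cyp2d9 and 17.9% in Cyp2d12 occurred in another gene, as did 9.86% and 3.79% of the 100-base stretches. The gene that shared most was the other of the pair, except for the 100-base stretches of Cyp2d9, where it was Cyp2d10. Their values are uncertain to that extent, but most of each transcript was its own.

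Cyp2d12 stood at 67.5, 37.8 and 21.7 FPKM in PR3_KO versus 4.81, 4.29 and 2.43 FPKM in WT. The PR3_KO libraries differed among themselves but all lay far above WT, and the change was 3.05 (SE 0.40, limma adjusted p = 0.00164). Cyp2d9 stood at 126, 60.1 and 81.1 FPKM in PR3_KO versus 19.6, 8.58 and 11.6 FPKM in WT, with no overlap and a change of 2.67 (SE 0.34, limma adjusted p = 0.00125). The FPKM of both genes together was 97.9 to 194 in PR3_KO and 12.9 to 24.4 in WT, so the difference does not turn on the split between them. This sum does not cover reads shared with other Cyp2d genes, whose placing was not examined. Cyp2d26 stood at 191, 124 and 199 FPKM in PR3_KO versus 52.6, 49.4 and 54.5 FPKM in WT. Its WT values lay close together, and it rose by 1.67 (SE 0.18, limma adjusted p = 0.000829). Cyp2d22, in the same cluster, was at 12.5 to 16.4 FPKM in PR3_KO and 15.3 to 20.2 FPKM in WT, which overlapped, with a change of -0.31 (SE 0.14, limma adjusted p = 0.0866). That gene passed as lower with equal library sums (-0.47, limma adjusted p = 0.0348) and without WT 3 (-0.42, limma adjusted p = 0.0399). The ratio of Cyp2d26 to Cyp2d22 was 9.92 to 13.3 in PR3_KO and 2.44 to 3.56 in WT. The members of this cluster thus differed in their change within the same libraries.

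The windows before 2 of the genes that rose are shown to compare them with the Cyp2a pair, again from RefSeq on GRCm38.p6: chr15:82452127-82452376 on the plus strand for Cyp2d9 and chr15:82794246-82794495 on the minus strand for Cyp2d26. Capitals mark the same 2 motifs on either strand.
Cyp2d9: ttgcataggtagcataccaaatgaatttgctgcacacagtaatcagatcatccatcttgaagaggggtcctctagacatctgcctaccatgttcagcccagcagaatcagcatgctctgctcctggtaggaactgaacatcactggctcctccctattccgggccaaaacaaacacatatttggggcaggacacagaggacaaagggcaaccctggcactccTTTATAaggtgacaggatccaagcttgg
Cyp2d26: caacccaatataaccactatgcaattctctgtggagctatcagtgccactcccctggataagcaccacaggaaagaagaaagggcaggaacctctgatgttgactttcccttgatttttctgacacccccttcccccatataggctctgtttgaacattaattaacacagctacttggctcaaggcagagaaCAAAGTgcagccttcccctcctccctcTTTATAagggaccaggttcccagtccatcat
Cyp2d26 held the half-site of HNF4 at -58 and a TATAAA box at -31, while Cyp2d9 held that box alone, at -28. In both windows the exact letters TATAAA lie on the reverse strand and so are printed as TTTATA. The printed strand itself reads TATAAG at that place, a near form that was not searched. The strand of the match therefore says nothing of the direction of a box. Cyp2d9 rose by more than Cyp2a4 without the letters CAAAGT in this window. Only those exact letters were searched and related forms of the site were not, so their absence says nothing of the factor.

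The epoxygenases of the Cyp2j and Cyp2c subfamilies make epoxides of arachidonic acid. Of 5 tested Cyp2j genes, in a cluster on chromosome 4 from 96042660 to 96664171, 2 rose and 3 did not pass. Cyp2j5, the main epoxygenase gene of the mouse kidney, stood at 497, 476 and 508 FPKM in PR3_KO versus 427, 234 and 378 FPKM in WT. The groups did not overlap, but the change of 0.56 (SE 0.22, limma adjusted p = 0.0629) did not pass. It passed with median-of-ratios scaling (0.89, limma adjusted p = 0.0277), and also when WT 1 or WT 2 was left out (0.73 and 0.30, limma adjusted p = 0.0294 and 0.0457). Cyp2j13 stood at 98.7, 95.0 and 109 FPKM in PR3_KO versus 71.1, 27.1 and 53.5 FPKM in WT. It did not overlap and rose by 1.08 (SE 0.31, limma adjusted p = 0.0209), a call that was lost without PR3_KO 1, 2 or 3 in turn (limma adjusted p = 0.065, 0.0505 and 0.0609), and without WT 2 its value was 0.70 (limma adjusted p = 0.00364). Cyp2j9, a brain and kidney member, rose from 3.01 ± 0.307 to 6.65 ± 1.88 FPKM (SD, n = 3 per genotype, log2 fold change 0.90, limma adjusted p = 0.00588).

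Cyp2j11 (56.1 to 73.1 against 31.9 to 55.3 FPKM, limma adjusted p = 0.0791) and Cyp2j6 (10.8 to 12.8 against 11.5 to 13.4 FPKM, limma adjusted p = 0.322) did not pass. Cyp2j6 turned from -0.13 to 0.17 with median-of-ratios scaling, and Cyp2j11 passed with that scaling (0.82, limma adjusted p = 0.0305). Cyp2j transcripts shared at most 1.34% of their 50-base stretches with other genes, so these values rest on their own sequence. Cyp2c23, a renal arachidonic acid epoxygenase, was the only one of 9 Cyp2c members above 1 FPKM. It stood at 33.3, 18.4 and 25.5 FPKM in PR3_KO versus 12.5, 9.79 and 15.0 FPKM in WT. The groups did not overlap and the gene rose by 0.97 (SE 0.22, limma adjusted p = 0.00866), but not past the threshold without WT 2 and PR3_KO 3 together (0.81, limma adjusted p = 0.0687). Ephx2, the soluble epoxide hydrolase that breaks these epoxides down, rose as well, from 133 ± 46.7 to 247 ± 33.6 FPKM (SD, n = 3 per genotype, log2 fold change 0.96, limma adjusted p = 0.0202).

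The Cyp4a genes encode omega-hydroxylases of fatty acids and are known targets of the receptor PPAR-alpha. Of 4 tested members 1 rose, Cyp4a32, and 3 of the most abundant P450 genes did not pass. Cyp4a10 stood at 348, 148 and 251 FPKM in PR3_KO versus 227, 104 and 248 FPKM in WT (log2 fold change 0.38, SE 0.40, limma adjusted p = 0.449). Cyp4a14 stood at 232, 37.8 and 155 FPKM in PR3_KO versus 212, 74.1 and 229 FPKM in WT (log2 fold change -0.46, SE 0.75, limma adjusted p = 0.626). Both genes overlapped between genotypes, and both were lowest within their genotype in the libraries numbered 2. Without PR3_KO 2 the value of Cyp4a14 was 0.31, and without WT 2 that of Cyp4a10 was -0.015, neither past the threshold (limma adjusted p = 0.648 and 0.976).

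Cyp4a31 was at 119 to 183 FPKM in PR3_KO and 68.3 to 137 FPKM in WT (0.60, limma adjusted p = 0.102) and passed with median-of-ratios scaling (0.93, limma adjusted p = 0.0446) and without WT 1 (0.80, limma adjusted p = 0.0481). Cyp4a32 rose from 1.35 ± 0.674 to 2.77 ± 0.493 FPKM (SD, n = 3 per genotype, 0.72, limma adjusted p = 0.0286). Its call was lost without PR3_KO 1, PR3_KO 3 or WT 3 (0.62, 0.73 and 0.47, limma adjusted p = 0.0961, 0.0684 and 0.0552) and with equal library sums (0.61, limma adjusted p = 0.0527). At a pseudocount of 0.1 its value was 1.10, and 46.8% of its 50-base stretches occurred in another gene, chiefly Cyp4a10, so it is uncertain. The gene of PPAR-alpha itself, Ppara, rose from 8.43 ± 2.10 to 28.9 ± 5.21 FPKM (SD, n = 3 per genotype, 1.67, limma adjusted p = 0.000838). Outside the symbol rule, Cyp4a12a and Cyp4a12b of the same subfamily rose by 2.17 and 1.27 (limma adjusted p = 0.000598 and 0.015), so that Cyp4a genes differed in their listed values. In Cyp4a10 and Cyp4a31 30.5% and 21.8% of 50-base stretches occurred in another gene, chiefly Cyp4a32. Sharing was not computed for Cyp4a12a and Cyp4a12b. The placing of reads among these copies is not known, so the split between them is uncertain.

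**Figure D3:**
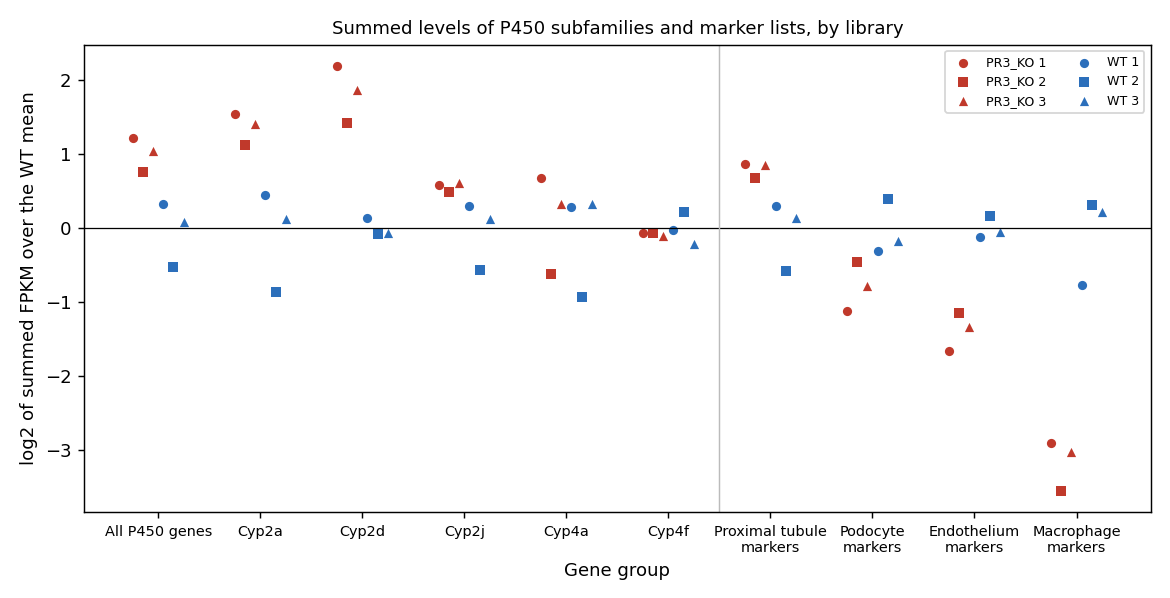
Summed FPKM of all P450 members, of 5 subfamilies and of 4 marker lists in each library, as log2 of the ratio to the WT mean (y axis), with red for PR3_KO, blue for WT and a marker shape for the replicate number. Cyp2a and Cyp2d genes lie above WT in all 3 PR3_KO libraries and Cyp4a genes overlap, while endothelial and macrophage markers lie below WT.

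The Cyp4f genes and their relatives moved both ways. Cyp4f18, a hydroxylase that inactivates leukotriene B4 and is known from neutrophils and other myeloid cells, stood at 1.79, 1.24 and 2.57 FPKM in PR3_KO versus 6.00, 12.6 and 6.94 FPKM in WT. It did not overlap and had the largest fall of the tested members (-1.69, SE 0.27, limma adjusted p = 0.00223), beside the fall of all 12 macrophage markers, whose part in it was not tested. Cyp4f16 fell from 7.81 ± 1.39 to 4.14 ± 0.458 FPKM (SD, n = 3 per genotype, -0.77, limma adjusted p = 0.00342), with 26.5% of its 50-base stretches in another gene, chiefly Cyp4f37. Cyp4f13 rose from 17.7 ± 2.22 to 24.4 ± 1.14 FPKM (SD, n = 3 per genotype, 0.44, limma adjusted p = 0.0119), but not past the threshold with equal library sums (0.29, limma adjusted p = 0.0852). Cyp4f17 was at 3.92 to 4.28 FPKM in PR3_KO and 2.07 to 3.30 FPKM in WT (0.48, limma adjusted p = 0.0235). The call of Cyp4f17 was lost without PR3_KO 1, PR3_KO 2, PR3_KO 3 or WT 3 (limma adjusted p = 0.0592, 0.0704, 0.0569 and 0.0618). It was also lost with equal library sums (0.36, limma adjusted p = 0.0898) and with Kap left out before the sums were made equal (0.42, limma adjusted p = 0.0518). Cyp4f17, Cyp4f16 and Cyp4f13 are the tested members of a cluster within 441 kb of chromosome 17, and between Cyp4f16 and Cyp4f13 lie 4 members below the filter, Cyp4f37, Cyp4f40, Cyp4f15 and Cyp4f14. The cluster thus held tested genes that differed in direction.

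Cyp4v3, the mouse counterpart of the fatty acid hydroxylase gene CYP4V2 of a human retinal disease, stood at 2.58, 3.29 and 3.02 FPKM in PR3_KO versus 5.76, 8.75 and 5.73 FPKM in WT. All PR3_KO libraries were below all WT libraries, and it fell by 0.95 (SE 0.17, limma adjusted p = 0.00303). Cyp4x1 was at 0.81 to 0.90 FPKM in PR3_KO and 1.04 to 1.32 FPKM in WT, close to the filter and not past the threshold (-0.25, limma adjusted p = 0.12, and -0.44 at a pseudocount of 0.1).

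Among the P450 genes of sterols and retinoids, Cyp27a1, the mitochondrial sterol 27-hydroxylase, rose. It stood at 37.1, 35.4 and 33.2 FPKM in PR3_KO versus 22.9, 18.1 and 19.6 FPKM in WT. The spread within each genotype was small against the difference, which was 0.78 (SE 0.11, limma adjusted p = 0.00138). Cyp7b1, an oxysterol 7-alpha hydroxylase, fell from 1.46 ± 0.263 to 0.58 ± 0.0954 FPKM (SD, n = 3 per genotype, -0.64, limma adjusted p = 0.00633), and its value was -1.20 at a pseudocount of 0.1. With a mean of 1.02 FPKM it was the tested member nearest to the filter, just above which stood Cyp4x1 (1.03) and just below which stood Cyp2r1 (0.952), the vitamin D 25-hydroxylase, and Cyp2u1 (0.768). Cyp39a1, another oxysterol hydroxylase, was at 1.27 to 1.84 FPKM in PR3_KO and 1.98 to 2.62 FPKM in WT (-0.36, limma adjusted p = 0.0599). It did not overlap and passed with equal library sums (-0.47, limma adjusted p = 0.0249).

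Cyp26b1, which breaks down retinoic acid, stood at 8.30, 21.7 and 24.6 FPKM in PR3_KO versus 53.8, 75.1 and 40.2 FPKM in WT. PR3_KO 1 was the lowest and WT 2 the highest, without overlap, and the gene fell by 1.66 on the log2 scale (SE 0.41, limma adjusted p = 0.015). Without WT 2 the call was lost (-1.44, limma adjusted p = 0.0955). The other retinoic acid hydroxylase genes were low, Cyp26a1 at 0.18 to 0.33 FPKM and Cyp26c1 at 0.04 FPKM or less. Cyp20a1, a member with no settled substrate, stood at 11.9, 15.2 and 12.4 FPKM in PR3_KO versus 23.4, 28.9 and 25.2 FPKM in WT. It fell by 0.92 (SE 0.12, limma adjusted p = 0.00116) with narrow spreads in both genotypes.

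Of the Cyp1 genes, which act on aromatic compounds and oestrogens under the aryl hydrocarbon receptor, Cyp1b1 was the tested one. It stood at 1.53, 2.11 and 1.57 FPKM in PR3_KO versus 3.54, 8.25 and 4.82 FPKM in WT. The groups did not overlap, WT 2 was the highest, and the gene fell by 1.20 (SE 0.25, limma adjusted p = 0.00583). Cyp1a1 was below the filter at 0.17, 0.10 and 0 FPKM in PR3_KO and 0.41, 0.48 and 0.94 FPKM in WT, also without overlap (p = 0.1 by exact permutation, two-sided, the least possible). The receptor gene Ahr fell from 5.07 ± 0.838 to 2.09 ± 0.336 FPKM (SD, n = 3 per genotype, -0.97, limma adjusted p = 0.00161), and its partner gene Arnt fell by 0.48 (limma adjusted p = 0.0117), the latter not past the threshold with median-of-ratios scaling (-0.18, limma adjusted p = 0.168). The window of Cyp1b1 is shown for the letters GCGTG, the core that the receptor and ARNT bind, which read as CACGC on the printed strand and stand in capitals.
Cyp1b1: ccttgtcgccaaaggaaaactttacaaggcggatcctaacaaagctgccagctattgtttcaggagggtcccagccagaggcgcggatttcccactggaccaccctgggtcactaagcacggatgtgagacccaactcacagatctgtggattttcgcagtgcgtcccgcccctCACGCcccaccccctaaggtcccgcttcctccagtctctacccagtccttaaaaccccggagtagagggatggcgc
The window lies at chr17:79715062-79715311 on the minus strand (RefSeq, GRCm38.p6). The core stood once, at -76, and 28.16% of the 32851 RefSeq windows held it on either strand, as did 6 of the 23 tested members with a window.

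The remaining tested members are enzymes of foreign compounds. Cyp2f2, which activates naphthalene in the lung, stood at 6.69, 6.45 and 5.66 FPKM in PR3_KO versus 3.26, 1.56 and 1.79 FPKM in WT. It did not overlap and rose by 1.22 (SE 0.19, limma adjusted p = 0.00211). Cyp2s1, an epithelial member, was at 7.26 to 9.70 FPKM in PR3_KO and 5.11 to 7.81 FPKM in WT, which overlapped (0.42, limma adjusted p = 0.0576), and it passed when WT 2 or PR3_KO 3 was left out (0.57 and 0.53, limma adjusted p = 0.0104 and 0.0464) or where median-of-ratios scaling was used (0.71, limma adjusted p = 0.00756). Cyp3a13, the only Cyp3a gene above the filter, was at 1.86 to 2.08 FPKM in PR3_KO and 2.28 to 2.78 FPKM in WT. Its change of -0.26 (limma adjusted p = 0.096) passed with equal library sums (-0.38, limma adjusted p = 0.0465).

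Below the filter stood 44 members, of which 3 (Cyp19a1, Cyp2a12 and Cyp2c67) were at 0 in every library and 15 more stayed under 0.1 FPKM throughout. The 3 highest were Cyp2r1, Cyp2u1 and Cyp46a1, the cholesterol 24-hydroxylase of neurons, with means of 0.952, 0.768 and 0.71 FPKM. The steroid-making P450 genes were near 0: Cyp11a1, which starts steroid synthesis, was at 0.07 FPKM or less, and Cyp21a1 was at 0.07 FPKM in WT 2 and 0 elsewhere. Cyp17a1 was at 0.04 to 0.25 FPKM. Cyp7a1, the rate-limiting enzyme of bile acid synthesis in the liver, was at 0.05 FPKM or less. From members near 0, 1 fragment was put at about 0.0699 to 0.081 FPKM in a transcript of 1 kilobase, read from 5 to 8 genes per library. Only products of FPKM and kilobases under 0.1 were used, so this value was bound to lie below 0.1. The depth of 12300000 to 14300000 fragments that follows is therefore only a rough guess. Levels under 0.1 FPKM stand for a few fragments, while 19 of the 44 members had a mean of 0.1 FPKM or more.

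In 4 of the 44 low members the genotypes did not overlap, 3 higher and 1 lower. Of all 6434 genes under 1 FPKM, 3.08% did so as higher and 19.4% as lower. Besides Cyp1a1 these were Cyp2b9, at 0.28, 0.14 and 0.35 FPKM in PR3_KO and 0, 0 and 0.04 FPKM in WT, Cyp2j8, at 0.36, 0.10 and 0.23 against 0, 0.03 and 0 FPKM, and Cyp2c65. They were picked after their values were seen, and at such levels carry little weight. Cyp2b10, the classic target of the receptor CAR, was at 0.24, 0.54 and 0.85 FPKM in PR3_KO and 0.12, 0.04 and 0.26 FPKM in WT, which overlapped (p = 0.2 by exact permutation, two-sided). RefSeq listed 16 more symbols of the rule, which had no value here and were not analysed.

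Genes for partners of P450 enzymes were read beside the members. For both lists below, the shares of all genes tested were 11.7% higher and 41.1% lower, with a median of -0.26. They were 25.6% and 22.2% with median-of-ratios scaling and 7.20% and 51.1% with equal library sums. Of 10 electron donors and binding partners 2 rose and 2 fell, with a median of 0.023, while median-of-ratios scaling gave 5 and 0 and equal library sums 2 and 3. Por rose from 84.4 ± 15.6 to 129.9 ± 11.7 FPKM (SD, n = 3 per genotype, 0.63, limma adjusted p = 0.0113) and Cyb5a, the cytochrome b5 gene, from 601 ± 168 to 961 ± 147 FPKM (SD, n = 3 per genotype, 0.71, limma adjusted p = 0.0355). Cyb5r1 and Pgrmc2 fell by 0.50 and 0.37 (limma adjusted p = 0.00319 and 0.0152), and the ferredoxin gene Fdx1 was at 43.0 to 52.9 FPKM against 27.4 to 42.3 (limma adjusted p = 0.103). Of 12 genes of haem synthesis and breakdown 3 rose, Alad, Urod and Fech, by 0.41 to 0.78, and Hmox1 fell (7 and 0 with median-of-ratios scaling, 2 and 3 with equal library sums). Hmox1, the inducible haem oxygenase, went from 45.5 ± 9.51 to 25.3 ± 4.41 FPKM (SD, n = 3 per genotype, -0.82, limma adjusted p = 0.00696), and Alas1, the rate-limiting enzyme of haem synthesis, was at 50.2 to 102 FPKM against 47.6 to 52.4 (limma adjusted p = 0.125, or 0.0388 under median-of-ratios scaling).

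Of 12 tested regulators 5 rose and 3 fell, with a median of 0.20 (7 and 2 with median-of-ratios scaling, 4 and 4 with equal library sums). Among all genes tested 11.7% rose and 41.1% fell. The shares were 25.6% and 22.2% with median-of-ratios scaling and 7.20% and 51.1% with equal library sums. Besides Ppara the genes that rose were Nr1h4 (the bile acid receptor FXR, 1.36), Hnf4a (0.79), Cebpa (0.57) and Nr1i2 (the xenobiotic receptor PXR, 0.55). Besides Ahr and Arnt, the glucocorticoid receptor gene Nr3c1 fell by 0.74 on the log2 scale. Hnf4a is itself one of the 33 proximal tubule markers above, so its rise is not separate from that list's. In the list of epoxide and prostanoid enzymes, Ephx2 was the 1 of 7 tested genes that rose, and 4 fell: Ptgis (-1.30), Alox12 (-1.24), Pla2g4a (-1.10) and Ptgs1 (-1.02). Ptgis, the prostacyclin synthase of endothelium, is itself a P450 enzyme without a Cyp symbol, and it stood at 1.92 ± 0.106 FPKM in PR3_KO and 6.22 ± 0.61 FPKM in WT (SD, n = 3 per genotype, limma adjusted p = 0.000684). Cyp51, the sterol demethylase gene outside the rule, did not pass (0.21, limma adjusted p = 0.567).

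Several Cyp2a, Cyp2d and Cyp4a genes are known to differ between male and female mice or to be abundant in liver, so related markers were read beside them. Transcripts of the Y-linked genes Ddx3y, Eif2s3y, Kdm5d and Uty were present in every library. Their sum was 31.7 to 33.9 FPKM in PR3_KO and 55.5 to 58.2 FPKM in WT. Of these 4 genes 3 fell, or 2 with median-of-ratios scaling. Over all genes tested 41.1% fell, or 22.2% with that scaling. The androgen-regulated kidney gene Kap was at 40546 to 57590.0 FPKM in PR3_KO and 5248 to 18509 FPKM in WT, while the other 5 genes of that list with a value gave 0 higher and 1 lower (1 and 0 with median-of-ratios scaling). The hepatocyte genes Ahsg and Hpx were at 0.06 and 0.30 FPKM or less, and Apoa1 was under 1 FPKM in all libraries. Of the 7 tested genes of that list 5 rose and 0 fell, where 11.7% of all genes tested rose. Ttr stood at 289 to 494 FPKM in PR3_KO and 115.5 to 247 FPKM in WT. Alb was at 8.68 to 11.1 against 2.59 to 7.39 FPKM, and Apoa2, Apob and Fga rose too. Serpina1a and Trf did not pass. Tubule cells can express some of these genes too. The part of androgen-dependent expression in the P450 differences was not tested.

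**Figure D4:**
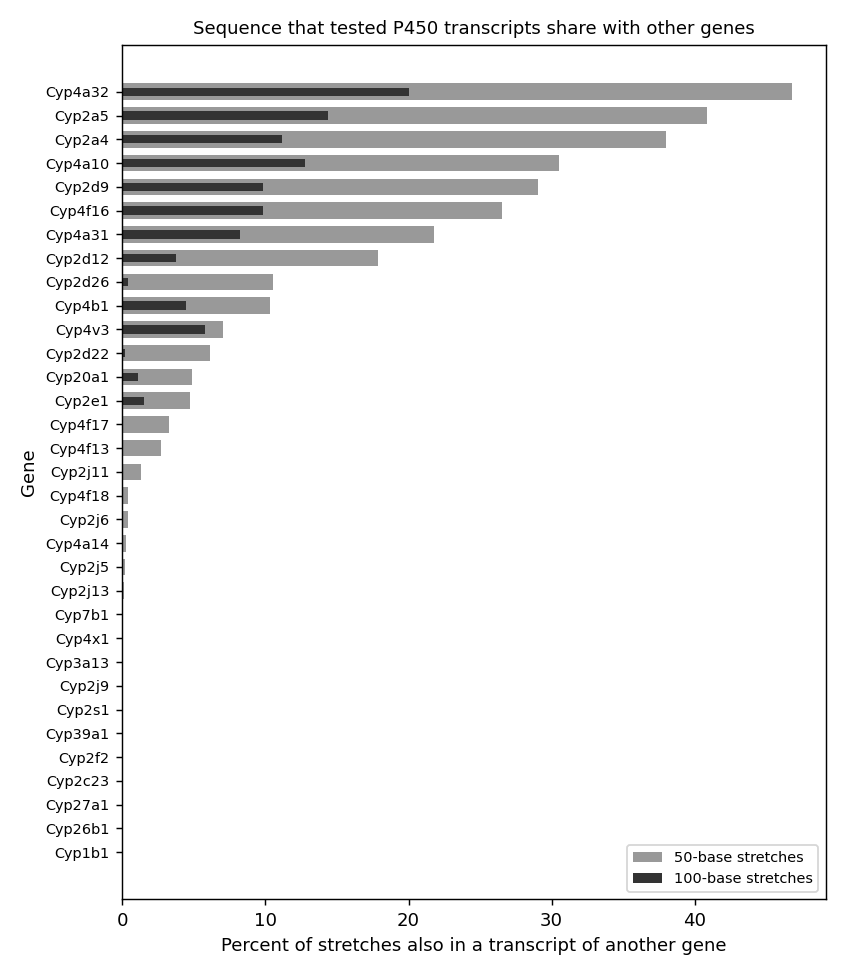
Share of the 50-base (grey) and 100-base (black) stretches of each tested P450 transcript that also occur in a transcript of another gene (x axis, percent). Sharing is highest in Cyp4a32 (46.8% of 50-base stretches), exceeds 10% in 10 of the 33 genes and is 0 in 11.

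Sharing of sequence set apart the close copies from the rest. In 10 of the 33 tested members over 10% of the 50-base stretches occurred in another gene, and in each of these the gene that shared most was a P450 gene or P450 pseudogene. In 11 members none did, among them Cyp2c23, Cyp27a1, Cyp2f2 and Cyp2j9, which rose, and Cyp26b1 and Cyp1b1, which fell. Genes called in either direction were thus present among genes whose stretches of that length were their own. The stretch lengths were chosen for illustration, because the read length is not given in the sources used here.

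**Figure D5:**
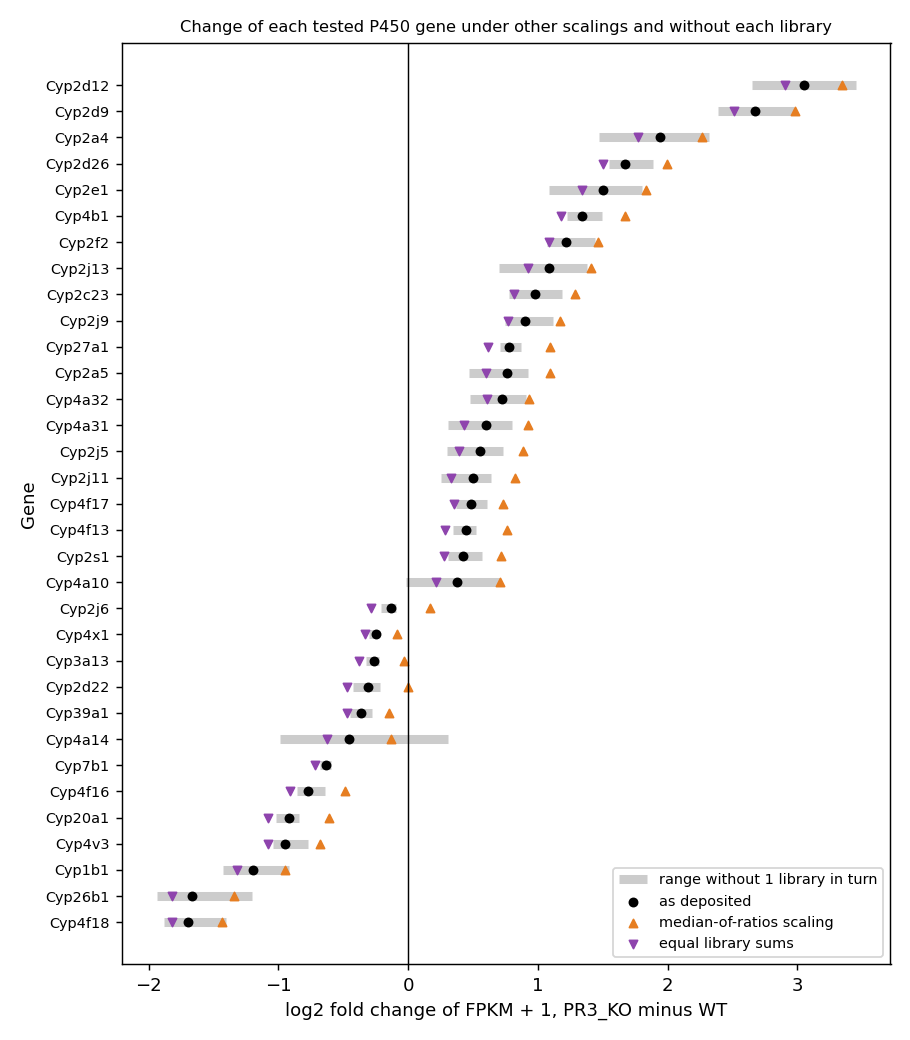
Log2 fold change of FPKM + 1 (PR3_KO minus WT, x axis) of each tested P450 gene as deposited (black), with median-of-ratios scaling (orange) and with equal library sums (purple), and the range without each library in turn (grey bar). Cyp2j6 changes sign with median-of-ratios scaling, and the grey bars of Cyp4a10 and Cyp4a14 reach both sides of 0.

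Of the 22 members past the threshold, 16 kept their call without each of the 6 libraries in turn. Besides Cyp2a5, Cyp2j13, Cyp4a32, Cyp4f17 and Cyp26b1, whose values are given above, Cyp7b1 left the comparison where its mean fell below 1 FPKM. All 15 members that rose kept their call with median-of-ratios scaling and 12 did with equal library sums. For the 7 that fell the numbers were 6 and 7, Cyp7b1 being below the filter after median-of-ratios scaling.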

How the data were processed

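RNA was measured in 6 libraries of mouse glomeruli. The labels' protocols name Trizol extraction, oligo(dT) selection and DNBSEQ sequencing. Per the submitters' processing notes, Bowtie2 and the build GRCm38.p6 were used; no version, counting method, annotation, strand setting or filter is given in the sources used here. The authors deposited FPKM rounded to 2 decimals, without counts, per the file headers. FPKM is relative to all mapped fragments of a library, so a rise of abundant transcripts lowers all others.

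Of 22064 Entrez gene IDs, 3242 had no value in all files. Symbols and coordinates came from a RefSeq table of GRCm38.p6, which matched 18770 of the other 18822. The 12388 genes whose mean reached 1 FPKM were fitted with limma 3.58.1 (statmod 1.5.0, R 4.3.3) to log2 of FPKM + 1, with genotype as the only term, an intensity trend and robust moderation. Benjamini-Hochberg adjustment ran over all 12388, and the threshold was an adjusted p of 0.05. The fit was tried on simulated data with independent noise for each gene and few changed genes. In the real data 52.8% of the genes tested passed, so that trial does not cover this case. For single genes below the filter an exact permutation test, two-sided, was used. The members and lists were chosen with earlier results of these data known. All tested members may be named, with full values for the most abundant and those that changed most; genes of other lists are named where they passed or where their role called for it. Cyp2d40 was in the list of P450 genes outside the rule but fits the symbol rule, and was counted as a member only. A few genes of the lists and 1 promoter motif are not reported here and were left out of the lists' counts.

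Coding sequences and shared stretches were computed from GENCODE M21 transcripts, with the longest coding sequence per gene, in Python 3.11.15 (Biopython 1.88, pandas 2.3.3, numpy 2.4.6, scipy 1.17.1), and plots drawn with matplotlib 3.10.9. Other scalings, filters, pseudocounts, a replicate block and the removal of libraries were tried as alternatives.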

Additional observations from a re-analysis of the deposited data

How the results depend on the processing

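The number of members that rose lay between 11 and 17, the number that fell between 5 and 7 and their median log2 fold change between 0.38 and 0.61 when each library was left out in turn. With pseudocounts of 0.1 and 0.5 the calls of all 33 members were the same as in the fit reported, but a pseudocount of 1 shrinks low genes: at 0.1 Cyp7b1 was at -1.20, Cyp4a32 at 1.10 and Cyp4x1 at -0.44. With no filter the members' median was 0.021, as members near 0 entered, and with a mean of at least 5 FPKM 4 members fell, as fewer were tested. With median-of-ratios scaling the median was 0.79 and Cyp2j6 turned to 0.17. Cyp4a14 was at 0.31 without PR3_KO 2, and Cyp4a10 at -0.015 without WT 2 and at -0.063 without WT 2 and PR3_KO 3 together; the cause was not tested. Leaving out each library in turn gave -0.99 to 0.31 for Cyp4a14 and -0.015 to 0.71 for Cyp4a10. Over all genes the share that rose was then 7.35% to 12.3% and the share that fell 31.1% to 38.3%.

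With the tubule score in the fit 0 members rose, 0 fell and the median was -0.15. The sign turned for Cyp2e1 (-0.80), Cyp2j5 (-0.78), Cyp4a10 (-1.46), Cyp2a4 (-0.68), Cyp4a31 (-1.06), Cyp2a5 (-0.66), Cyp2j13 (-1.03), Cyp2j11 (-0.59) and Cyp1b1 (0.42), none past the threshold (limma adjusted p between 0.60 and 0.85), and of the genes with the largest rises Cyp2d12 was at 3.14, Cyp2d9 at 0.93, Cyp2d26 at 1.36 and Cyp4b1 at 0.66 (limma adjusted p = 0.747, 0.839, 0.683 and 0.811).

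In a fit with a replicate block 19 members rose and 7 fell; Cyp2j5, Cyp4a31, Cyp2j11 and Cyp2s1 were gained. Deviations of same-numbered libraries correlated at 0.07, 0.27 and -0.09, so the numbers were not taken as pairs, and not every library correlated best with its own number. The lack of counts and the few fragments behind levels under 0.1 FPKM limit what can be said of the low members.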
